A study of Canis lupus familiaris with 33 samples.

Results

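Canine invasive urothelial carcinomas (iUC, a form of bladder cancer) that were high across chromosome 13 were compared with tumors that were low across it. The members were chosen by measured values. In each of the 29 tumors the deposited values of RAD21, EIF3H, DERL1, ATAD2, ASAP1, PTK2, AGO2, PUF60 and EXOSC4 were averaged into a score, and the 10 tumors with the highest and the 10 with the lowest score were taken, which left 9 tumors in neither group. A 10th gene of the rule, NSMCE2, was not analysed here, so the score is the mean of 9 genes. All 9 scoring genes were left out of every test. Values are on the log2 scale and were centred by the authors, gene by gene, at the median of the 33 samples, so that 0 is a gene's own median.

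Each tumor came from a different dog that had not been treated, was taken by biopsy at cystoscopy and was high grade, and tumors were accepted only with a high share of epithelial cells. How deep each tumor had invaded could not be assessed in every biopsy. The 4 normal samples were the urothelial layer of bladders from dogs euthanized for other conditions. All 33 libraries were sequenced in 1 batch. The dogs were of any age, sex or breed, no treatment separated the tumor groups, and DNA copy number was not measured.

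Chromosome 13 of the dog carries, in its first part, genes that lie on the long arm of chromosome 8 in people, with MYC among them, and, in its last part, genes of human chromosome 4, with KIT among them. Gain of chromosome 13 and loss of chromosome 19 recur in canine urothelial carcinoma. When a tumor gains a chromosome, the RNA of many genes along it rises with the number of gene copies, while other genes on it stay governed by cell type and signaling. The scoring genes serve unrelated tasks: RAD21 is a subunit of the cohesin ring that holds sister chromatids together, EIF3H belongs to a translation initiation factor, DERL1 to the removal of misfolded proteins from the endoplasmic reticulum, ATAD2 is a chromatin protein raised in proliferating cells, ASAP1 regulates Arf GTPases, PTK2 is focal adhesion kinase, AGO2 is the slicer of RNA interference, PUF60 is a splicing factor and EXOSC4 is a subunit of the RNA exosome.

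The score ran from -0.64 in tumor 2 to 0.85 in tumor 12. In the high tumors its lowest, median and highest values were 0.24, 0.46 and 0.85, and in the low tumors -0.64, -0.35 and -0.06. The groups were cut from a continuous range: tumor JE was the last inside the high group at 0.24 and tumor Ja the first outside it at 0.14, and tumor 7_733858 was the last inside the low group at -0.06 and tumor 5 the first outside it at -0.04. These values chose the tumors and are given as a description.

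The scoring genes did not contribute alike. EIF3H had a lowest, median and highest value of 0.24, 0.52 and 0.98 in the high tumors and of -0.89, -0.32 and 0.19 in the low tumors, and the groups did not overlap. EXOSC4 ran over 0.18, 0.53 and 0.91 against -1.13, -0.60 and 0.01, again without overlap. PUF60 (0.09 to 0.86 against -0.67 to 0.00) and PTK2 (0.03 to 1.09 against -0.74 to 0.00) also separated the groups. RAD21 (0.14 to 0.85 against -0.52 to 0.36), DERL1 (-0.16 to 0.81 against -0.66 to 0.09), ATAD2 (0.00 to 1.58 against -1.98 to 0.35) and AGO2 (-0.11 to 1.72 against -0.69 to 0.02) overlapped. ASAP1 did not follow the others. It ran from -1.64 to 1.11 in the high tumors and from -0.77 to 0.39 in the low tumors, with the low range lying within the high range. The place of tumor JE among the high tumors rested on ASAP1, which stood at 1.11 there, while its other scoring genes ran from -0.16 to 0.39. Without ASAP1 in the score, 9 of 10 high and 9 of 10 low tumors kept their group.

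**Figure D1:**
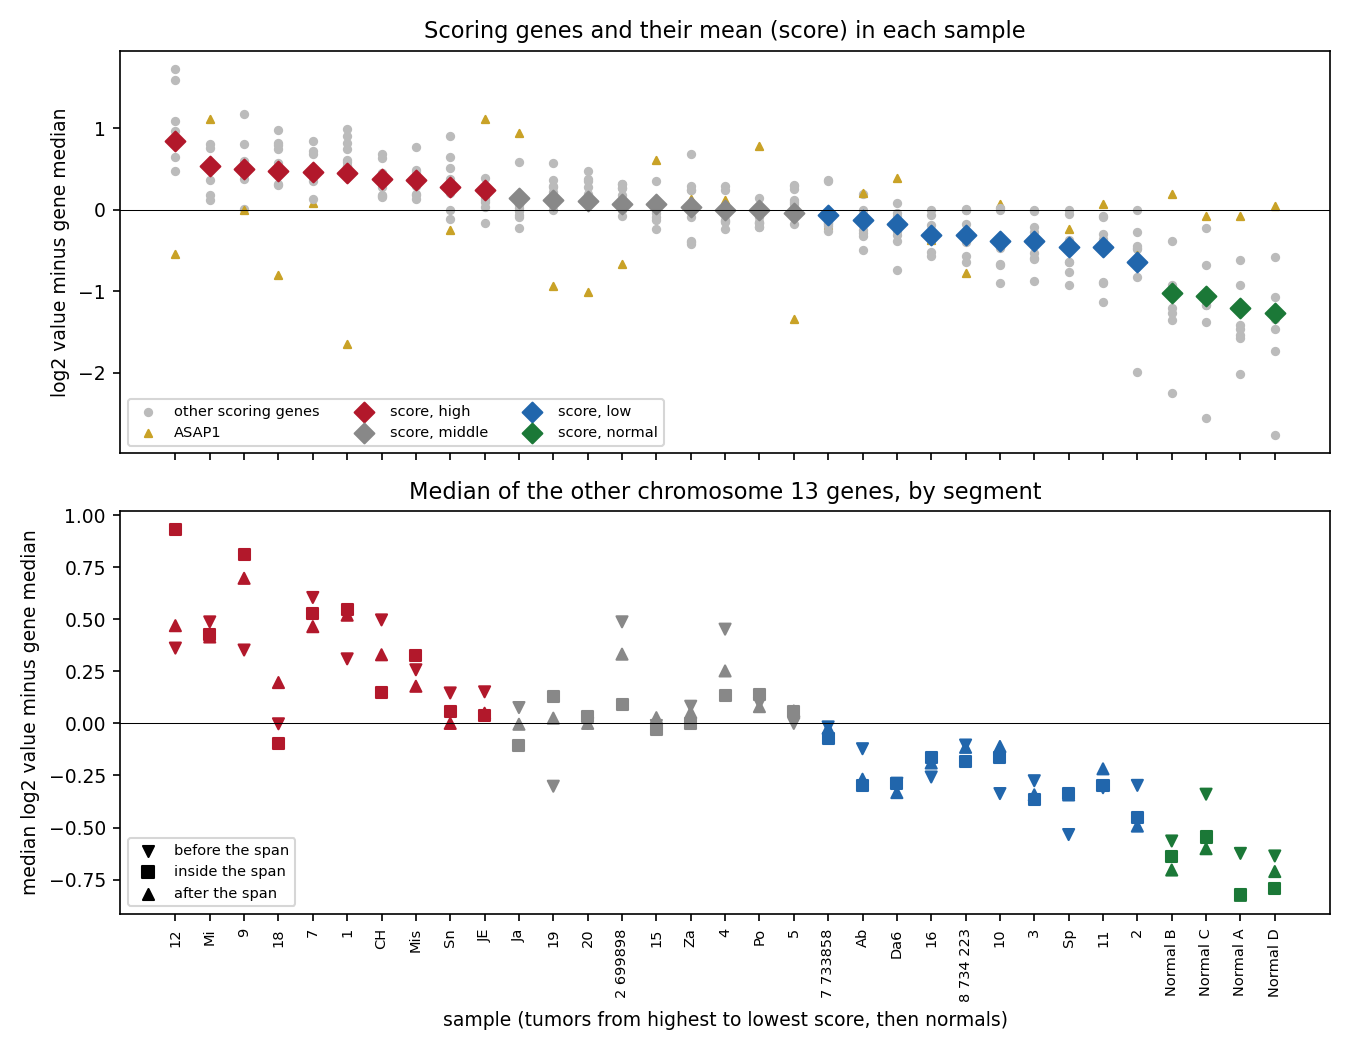
Upper panel, the deposited log2 values of the scoring genes (circles, ASAP1 as triangles) and their mean, the score (diamonds), in each sample; lower panel, the median of the other chromosome 13 genes before, inside and after the span of the scoring genes. The 10 high tumors score between 0.24 and 0.85 and the 10 low tumors between -0.64 and -0.06, and the 4 normals lie below every tumor in score.

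Technical measures were checked first. The number of genes at a value shared as the lowest of that gene, taken here as the mark of a gene without reads, was 4638 to 8175 in the high tumors, 6461 to 8140 in the low tumors and 755 to 1019 in the normals. Olfactory receptor genes, which bladder tissue is not known to use, were above that lowest value for 7.89% to 77.6% of 152 genes in the high tumors (median 18.4%) and for 8.55% to 31.6% in the low tumors (median 19.4%). More than 40% of them were above it in 6 tumors, 3 of which were high (1, 9 and 12) and 0 low, and results are given without these tumors as well. The urothelial genes UPK1A, UPK2, UPK3A, GATA3, PPARG, FOXA1 and KRT19 were above the lowest value in 29 of 29 tumors, and KRT20 in 20.

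The other genes of chromosome 13 followed the score along the whole chromosome. The median of 268 such genes per tumor had a lowest, median and highest value of 0.04, 0.36 and 0.62 in the high tumors and of -0.41, -0.26 and -0.07 in the low tumors. The groups did not overlap, with 10 of 10 high tumors above 0 and 10 of 10 low tumors below it. Of the tumors in neither group, 5 of 9 were above 0. Sn, 18 and JE were the lowest of the high tumors, at 0.0374, 0.0437 and 0.0483. They lay below tumors Za (0.0501), Po (0.10), 4 (0.22) and 2_699898 (0.29), which were not in the high group. Tumor 5 (0.0445), also outside it, lay above Sn and 18.

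The chromosome was divided by the order of genes in a RefSeq table into the part before the span from EIF3H to EXOSC4, the part inside it and the part after it. Inside the span, where 87 genes entered, the median per tumor was -0.10 to 0.93 in the high tumors and -0.45 to -0.07 in the low tumors. Before the span, with 53 genes, it was 0.00 to 0.60 against -0.53 to -0.02. After the span, with 128 genes, it was 0.00 to 0.70 against -0.49 to -0.02. Tumor 18 was the tumor whose score and neighboring genes differed most in kind: its score was 0.47, but the genes inside the span had a median of -0.10, those before it 0.00 and those after it 0.20. Tumor 12 had its highest segment inside the span (0.93, against 0.36 before and 0.47 after it), and tumor 9 stood at 0.81 inside, 0.35 before and 0.70 after it.

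Gene by gene, the high and low tumors were compared with limma over 19229 genes. At an adjusted p of at most 0.05, 39 genes (0.203%) were called higher and 1 gene (0.0052%) lower in the high tumors. Of 286 other genes tested on chromosome 13, 29 were higher and 1 was lower. The median difference on chromosome 13 was 0.59 on the log2 scale, a ratio of 1.51, against 0.01 over all genes tested. The sign was positive for 244 of the 286 genes. At an unadjusted p under 0.05, 147 of them were higher and 2 lower, where the whole table had 4.23% higher and 2.75% lower. The groups did not overlap for 11 genes of the table with the high tumors above (0.0572%), and 10 of these were on chromosome 13. Of the other 10 genes called higher, 0 were placed on another of chromosomes 1 to 26, the only ones examined. Of these 10 genes, 2 carry a symbol that could not be matched to the RefSeq table (C8orf33 and WDYHV1) and 8 carry neither a symbol nor a matched chromosome.

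The call counts rested on few tumors, while the size of the difference moved less. Over 44 other settings the chromosome 13 median stayed between 0.40 and 0.72. Without tumor 1, or without tumor Sp, 25 genes were called higher. Without tumors 1, 9 and 12, whose olfactory receptor shares were high, which left 7 high tumors, 2 genes were called higher and 0 lower, 1 of them on chromosome 13, at a chromosome 13 median of 0.48. With the olfactory share as a covariate 18 genes were called higher.

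**Figure D2:**
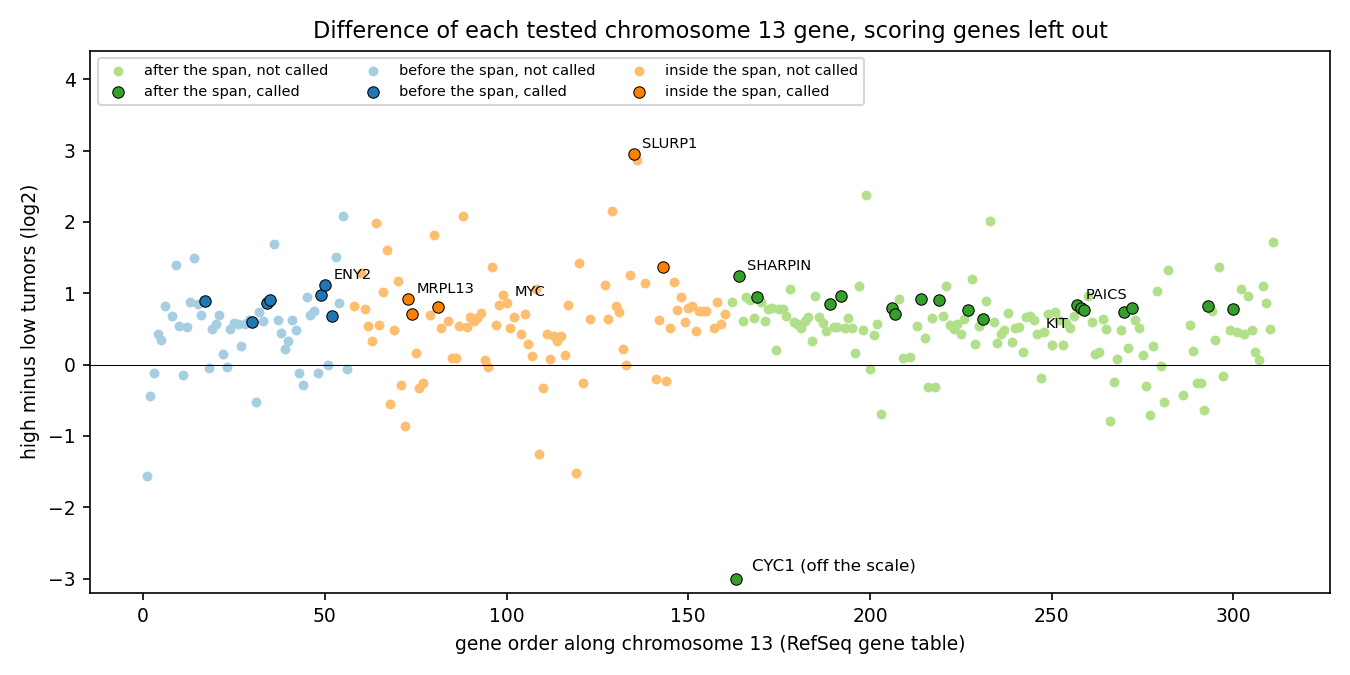
Difference of each tested chromosome 13 gene between the 10 high and the 10 low tumors (log2, vertical axis) against its place in the order of genes along the chromosome (horizontal axis), colored by segment, with genes called at an adjusted p of at most 0.05 outlined. Of 286 genes 244 lie above 0, and the called genes are spread over all segments; CYC1, at -7.66, is drawn at the lower edge.

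Before the span, 55 genes were tested, 7 were called higher and 0 lower, and the median difference was 0.59. ENY2, a small subunit of the SAGA coactivator and of an mRNA export complex, had a lowest, median and highest value of 0.22, 0.76 and 1.23 in the high tumors and of -0.65, -0.37 and -0.10 in the low tumors. The groups did not overlap, and the difference of 1.12 ± 0.15 (SE, 10 against 10 tumors; limma adjusted p = 0.00675) had the lowest p of the table. Its neighbor NUDCD1 ran over 0.34, 0.68 and 1.33 against -0.61, -0.27 and 0.02 and did not overlap either, with a difference of 0.98 ± 0.14 (limma adjusted p = 0.00791). DCAF13, which takes part in ribosomal RNA processing, differed by 0.91 ± 0.15 without overlap, as did ATP6V1C1, a subunit of the proton pump of lysosomes, by 0.60 ± 0.12. The other called genes were ANKRD46 (0.90 ± 0.13), SLC25A32, the mitochondrial folate carrier (0.86 ± 0.16), and EBAG9 (0.69 ± 0.14), in each of which 9 of 10 high tumors lay above every low tumor.

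Inside the span 90 genes were tested besides the scoring genes, 5 were called higher and 0 lower, and the median difference was 0.64, with a positive sign for 77 genes. MRPL13, a protein of the large mitochondrial ribosomal subunit, had a lowest, median and highest value of 0.01, 0.26 and 0.94 in the high tumors and of -0.91, -0.64 and 0.04 in the low tumors. The high tumors were above every low tumor in 9 of 10 cases, and the difference was 0.92 ± 0.17 (SE, limma adjusted p = 0.0168). MTBP, the next gene in the order, binds MDM2 and acts in the firing of replication origins. It ran over 0.10, 0.45 and 0.73 against -0.80, -0.28 and 0.20, a difference of 0.71 ± 0.14 (limma adjusted p = 0.0292) with slight overlap. A gene without a symbol, ENSCAFG00000001000, differed by 0.81 ± 0.13 (limma adjusted p = 0.0143) and did not overlap.

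SLURP1, which encodes a small secreted protein of the Ly6 family made by squamous epithelium, had the largest difference among the called genes inside the span. Its lowest, median and highest values were 0.38, 1.54 and 2.83 in the high tumors and -3.48, -1.21 and 1.44 in the low tumors. All high tumors were above 0, while the low tumors were widely spread, 3 of them at the lowest value of the gene. The difference was 2.95 ± 0.57 (limma adjusted p = 0.0288), 5 of 10 high tumors lay above every low tumor, and 3 tumors of 29 were at the lowest value, so the size depends on that lowest value. Named after their values were seen, the neighbors of SLURP1 in the same family stood at differences of 2.87 ± 0.62 for LYPD2 (limma adjusted p = 0.064) and 1.25 ± 0.50 for PSCA (limma adjusted p = 0.623), neither of which was called. The number of called genes inside the span was small and unsteady: it was 2 without tumor 1 or tumor 9, 3 without tumor Mis, Ab, Sp, 11 or 2, and 8 without tumor 7_733858.

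MYC, the transcription factor and oncogene, lies inside the span and was not called. It ran over -0.47, 0.53 and 1.66 in the high tumors and over -0.86, -0.35 and 0.62 in the low tumors. The groups overlapped, with 4 of 10 high tumors above every low tumor, and the difference was 0.87 ± 0.24 (limma adjusted p = 0.27). KIT, a receptor tyrosine kinase, lies after the span. It ran over -0.90, -0.25 and 1.48 against -1.69, -0.39 and 0.91, and the ranges overlapped, with 2 of 10 high tumors above every low tumor and 3 of 10 low tumors below every high tumor. It differed by 0.43 ± 0.37 (limma adjusted p = 0.86). PDGFRA was not analysed here.

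After the span 141 genes were tested, 17 were called higher and 1 lower, and the median difference was 0.57. The part next to the span holds the end of the human chromosome 8 block. COMMD5 differed by 0.86 ± 0.14. BOP1, a ribosome biogenesis factor, ran from -0.09 to 1.61 in the high tumors and from -0.70 to -0.15 in the low tumors without overlap, a difference of 0.95 ± 0.19 (limma adjusted p = 0.0377). RPL8, a protein of the large cytosolic ribosomal subunit, differed by 0.97 ± 0.18.

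Of a list of genes that lie in the human chromosome 4 block, 63 were tested, 62 of them placed on chromosome 13. Of these 63, 10 were called higher and 0 lower, beside 0.203% higher and 0.0052% lower of all genes tested. Over the whole of chromosome 13, 29 of 286 genes were called higher. The median difference of the list was 0.55. PAICS and PPAT, neighbors that share a promoter region and both encode enzymes of purine synthesis, differed by 0.83 ± 0.14 (limma adjusted p = 0.0159) and 0.80 ± 0.14 (limma adjusted p = 0.0168). PAICS ran over 0.04, 0.49 and 0.96 in the high tumors and over -0.65, -0.29 and 0.06 in the low tumors. The high tumors were above every low tumor in 9 of 10 cases for both genes. COMMD8 (0.90 ± 0.16) and UTP3, a protein of ribosomal RNA processing (0.82 ± 0.14), were called as well, and UTP3 did not overlap between groups. The largest difference of the list, 1.36 ± 0.30 for the deoxycytidine kinase gene DCK, was not called (limma adjusted p = 0.0681). Further called genes of this part were SLAIN2, a microtubule protein (0.76 ± 0.12), OCIAD1 (0.64 ± 0.13), SRP72 of the signal recognition particle (0.77 ± 0.14), CENPC of the inner kinetochore (0.74 ± 0.15), UBA6, a ubiquitin-activating enzyme (0.80 ± 0.15), and COX18, which acts in cytochrome oxidase assembly (0.78 ± 0.14). TMEM33, SLC30A9 and GNPDA2, outside that list, differed by 0.80 ± 0.14, 0.71 ± 0.13 and 0.92 ± 0.16.

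The 1 gene called lower was CYC1, the cytochrome c1 subunit of respiratory complex III, and it lies directly beside a gene called higher, SHARPIN, a subunit of the linear ubiquitin ligase complex. CYC1 was at its lowest value, -9.25, in 8 of 10 high tumors, in 0 of 10 low tumors and in 2 of the 9 tumors between. In the other 19 tumors it ran from -0.09 to 1.35, with nothing in between. SHARPIN ran from 0.64 to 1.74 in exactly the 10 tumors in which CYC1 was at its lowest value and from -0.86 to 0.35 in the other 19. The limma differences were -7.66 ± 1.28 for CYC1 (adjusted p = 0.0144) and 1.24 ± 0.21 for SHARPIN (adjusted p = 0.0159). A gap of this kind above the lowest value, 9.16 log2 units, was the rank 3 gap among 9612 genes that were at their lowest value in some tumors, and 13 genes had a gap over 6. How reads were divided between neighboring genes is not stated for these tables, so both differences are uncertain, and the level of CYC1 in the high tumors cannot be told.

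**Figure D3:**
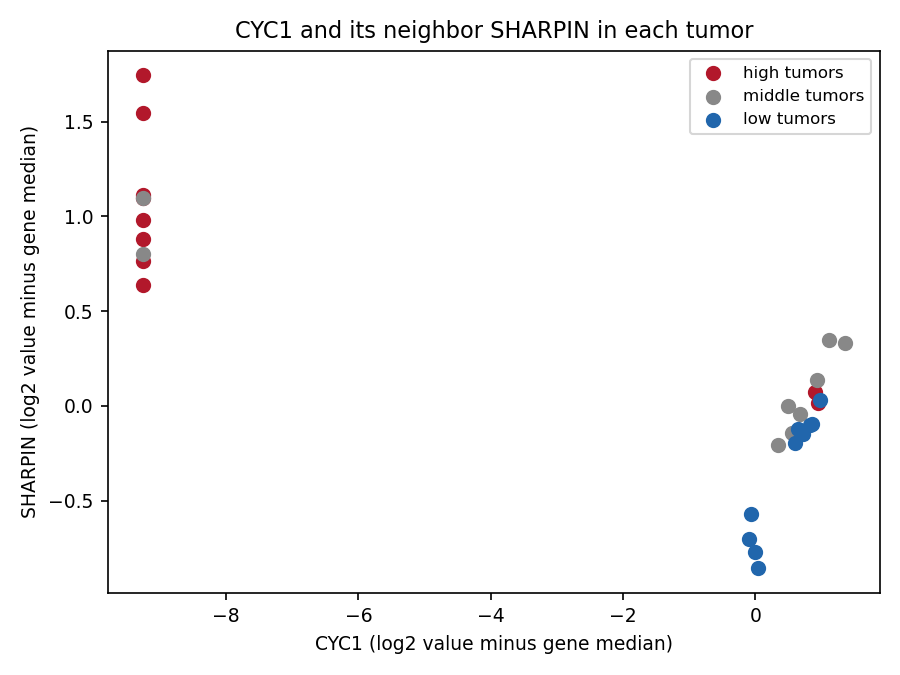
CYC1 (horizontal axis) and SHARPIN (vertical axis), log2 value minus gene median, in each of the 29 tumors, colored by group. The 10 tumors with CYC1 at -9.25 are the 10 with SHARPIN at 0.64 or above, and 8 of them are high tumors.

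Beyond chromosome 13, the other 25 of chromosomes 1 to 26 were examined. The remaining chromosomes were not analysed one by one, and their genes could enter only among 7410 tested genes placed on none of chromosomes 1 to 26. No gene placed on these 25 chromosomes was called, of 11533 tested with limma, and at an unadjusted p under 0.05 there were 390 higher and 372 lower. Their medians ran from -0.22 on chromosome 19 to 0.12 on chromosome 4, and the share of genes with a positive sign from 20.3% on chromosome 19 to 61.6% on chromosome 4. The sign on chromosome 19 was opposite to that on chromosome 13 and the size smaller. Its median over 130 genes was -0.98 to 0.60 in the high tumors and -0.83 to 0.55 in the low tumors, and the groups overlapped almost wholly. Over the 29 tumors, and among chromosomes 1 to 26, chromosome 19 had the widest spread of such medians (SD 0.37) and chromosome 13 the next (SD 0.29), followed by chromosome 25 (SD 0.26). Between the high and low tumors, chromosome 25 differed by -0.04.

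**Figure D4:**
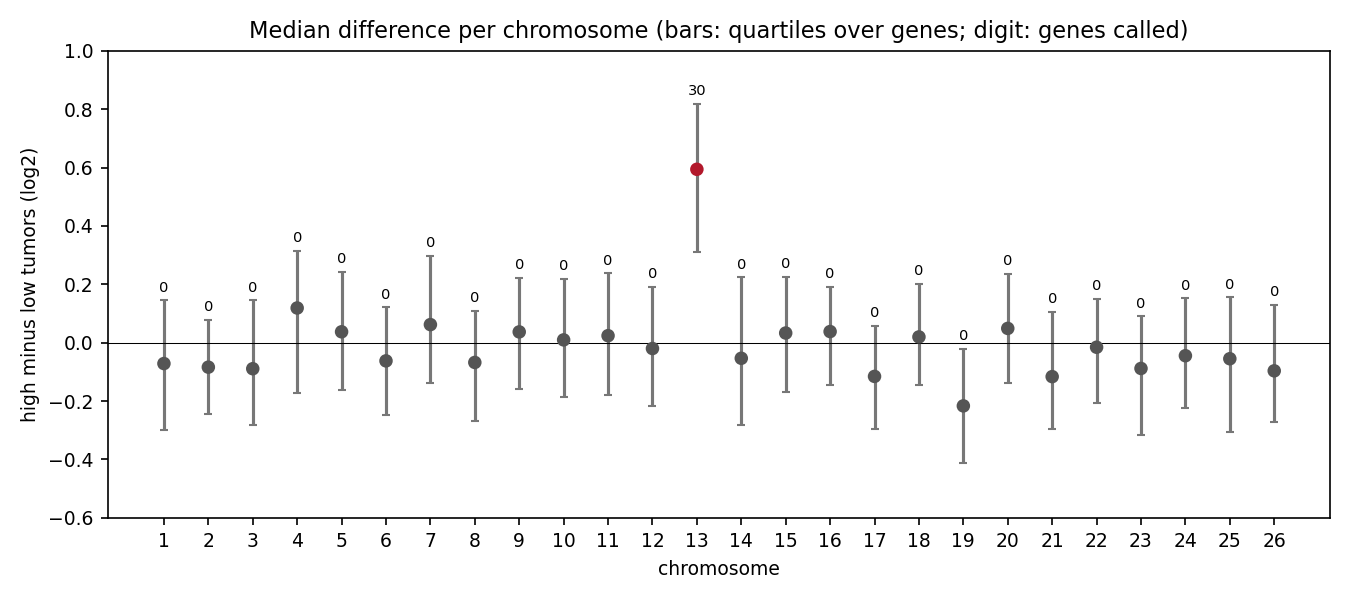
Median difference between the high and low tumors over the tested genes of each of chromosomes 1 to 26 (points, log2) with the quartiles over genes (bars), and the number of genes called. Chromosome 13, without the scoring genes, has a median of 0.59 and 30 called genes, and each of the other 25 chromosomes drawn lies between -0.22 and 0.12 with 0 called genes.

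With the score as a continuous term over all 29 tumors, more genes passed. By limma, 136 genes (0.707%) rose with the score and 10 (0.052%) fell. Of the chromosome 13 genes tested, 85 rose, 29 of 90 inside the span, 13 of 55 before it and 43 of 141 after it, and CYC1 fell. MYC was among them, with a slope of 1.29 ± 0.30 per unit of score (limma adjusted p = 0.0327), and KIT was not (0.47 ± 0.48, adjusted p = 0.83). On the other 25 chromosomes examined, 28 genes rose and 6 fell.

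Of the list members on other chromosomes, 9 rose with the score, where of all genes tested 0.707% rose and 0.052% fell. CDK1, the kinase that drives entry into mitosis, had a slope of 1.57 ± 0.28 (limma adjusted p = 0.00248). Of 27 tested DNA replication genes 5 rose and 0 fell, with a median slope of 0.86 against -0.01 over all genes: GINS2 and MCM2 and MCM3 of the replicative helicase, ORC6 of the origin recognition complex and TYMS, which makes thymidylate. CDK1 was the 1 of 20 mitosis genes that rose, at a median slope of 1.01, and CDCA5, which protects cohesin, rose (1.72 ± 0.43, limma adjusted p = 0.0495) in a list of 9 cohesin genes with a median slope of -0.12 and 3 positive slopes. CDCA5 was at -4.32 in tumor 2, far below the other low tumors. MRPL41, a mitochondrial ribosomal protein, and NDUFS7, a subunit of respiratory complex I, rose as well, with slopes of 0.84 ± 0.20 and 0.67 ± 0.16.

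In the comparison of the high with the low tumors, 27 of 27 DNA replication genes and 20 of 20 mitosis genes had a positive difference, but 0 were called. The medians were 0.52 and 0.62, and 11 and 6 of these genes were higher at an unadjusted p under 0.05, where of all genes tested 50.8% had a positive sign and 4.23% were higher at that p. CDK1 ran over -0.29, 0.31 and 1.57 in the high tumors and over -2.35, -0.46 and 0.26 in the low tumors, with overlap, and differed by 1.04 ± 0.32 (limma adjusted p = 0.407). The kinase gene TTK differed by 0.84 ± 0.36, GINS2 by 1.00 ± 0.33 and ORC6 by 0.95 ± 0.36 (limma adjusted p = 0.664, 0.496 and 0.596). The mean level of the DNA replication genes ran from -0.40 to 1.01 in the high tumors and from -1.51 to 0.59 in the low tumors. ATAD2, a scoring gene, is itself raised in proliferating cells. A score without ATAD2 kept 10 of 10 high and 10 of 10 low tumors, so the group differences above stayed the same. Over the 29 tumors, 0 of the DNA replication genes were called without ATAD2 in the score. There were also 0 without tumor 2, the lowest in score, or without tumor 12, the highest, and 1 to 7 without any other single tumor. With the median of the other chromosome 13 genes in place of the score, 4 genes on other chromosomes were called, 0 of them DNA replication genes. The part of each of these in the slopes was not tested.

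The partners of the proteins that the scoring genes encode gave no call in the comparison of groups; at an unadjusted p under 0.05, 1 of the cohesin genes was higher and 1 lower, 1 eIF3 subunit was higher, and 1 gene each of endoplasmic reticulum degradation and small RNA silencing was lower, beside 4.23% higher and 2.75% lower of all genes tested. Median differences were 0.09 for 9 other eIF3 subunits, 0.09 for 11 RNA exosome subunits, -0.08 for 9 cohesin genes, -0.01 for 15 genes of endoplasmic reticulum degradation, 0.02 for 4 genes of the SMC5/6 complex and 15 of focal adhesion, -0.01 for 13 early splicing factors and -0.24 for 7 genes of small RNA silencing, beside 0.01 over all genes. The sign was positive for 9 of 9 eIF3, 9 of 11 exosome, 3 of 9 cohesin and 7 of 15 degradation genes, beside 50.8% of all genes tested. It was positive for 2 of 4 SMC5/6, 9 of 15 focal adhesion, 6 of 13 splicing and 1 of 7 small RNA silencing genes. Of the eIF3 subunits, EIF3E lies on chromosome 13 and had a difference of 0.94 ± 0.21 (limma adjusted p = 0.0681), while EIF3M, elsewhere, had 0.41 ± 0.24 (adjusted p = 0.777). Among the exosome genes EXOSC9 and EXOSC7 differed most, by 0.28 each (adjusted p = 0.914 and 0.817). Of the small RNA silencing genes, XPO5, which exports microRNA precursors, stood at 0.56 ± 0.33 (adjusted p = 0.777) and AGO1, a relative of AGO2, at -0.48 ± 0.20 (adjusted p = 0.659). Of the degradation genes, UBXN4 stood at -0.68 ± 0.24 (adjusted p = 0.528) and SEL1L at -0.42 ± 0.21 (adjusted p = 0.725). The cohesin genes with the largest differences were CDCA5 (1.07 ± 0.47, adjusted p = 0.677) and ESCO2, an acetyltransferase of cohesin (0.74 ± 0.38, adjusted p = 0.729). In the remaining lists the largest differences were those of NSMCE1 (0.20 ± 0.18) and SMC5 (-0.16 ± 0.16) of the SMC5/6 complex, BCAR1 (0.27 ± 0.17) and TLN1 (-0.25 ± 0.15) of focal adhesion, and SF3B4 (-0.21 ± 0.15) and SRSF1 (0.18 ± 0.14) of splicing.

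Of lists of growth and metabolism, the members called in the comparison of groups were on chromosome 13. Over all genes tested 50.8% had a positive sign, 4.23% were higher and 2.75% lower at an unadjusted p under 0.05. Cytosolic ribosomal proteins had a positive sign in 50 of 54 genes at a median of 0.28, with RPL8 called and 5 higher at that p. Mitochondrial ribosomal proteins had 42 of 49 and 0.19, with MRPL13 called and 4 higher at that p. Genes of ribosome biogenesis had 21 of 25 and 0.19, with BOP1 called and 4 higher at that p. Oxidative phosphorylation subunits had 32 of 35 and 0.22, with CYC1 called lower, 5 higher and 1 lower at that p. Their mean level differed by 0.013 with the uncertain -7.66 of CYC1 included, so it does not give the level of the other subunits. The proteasome had 23 of 29 and 0.16, with 0 called and 2 higher at that p, and its largest differences were those of PSMA8 (0.68 ± 0.35, adjusted p = 0.727) and PSMB6 (0.40 ± 0.19, adjusted p = 0.71). PSMA8 was at its lowest value in 16 of 29 tumors, 4 of them high and 6 low, so the size of its difference depends on that value. Hypoxia and glycolysis genes had a median of 0.30 (ADM 1.14 ± 0.43, adjusted p = 0.576, and EGLN3 1.04 ± 0.37, adjusted p = 0.543), p53 targets, with a positive sign in 8 of 14, 0.07 (RRM2B, on chromosome 13, 0.59 ± 0.20, adjusted p = 0.501, and SESN1 -0.55 ± 0.22, adjusted p = 0.637) and immediate early genes 0.26 (KLF4 0.86 ± 0.37, adjusted p = 0.667), with 0 called in each, where 3, 1 and 2 genes were higher and 0, 1 and 0 lower at that p.

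Markers of other cell types were compared because the biopsies are mixtures, and in bulk tissue fewer cells of a type cannot be told from less RNA per cell. In none of these lists was a gene called by limma, and at an unadjusted p under 0.05 there was 1 gene among them, a lower one of the basal and squamous list. T and NK cell genes had a negative sign in 11 of 13 genes, with a median difference of -0.41, and their mean level ran from -1.92 to 1.32 in the high tumors and from -2.01 to 2.62 in the low tumors. B and plasma cell genes had a negative sign in 11 of 13 genes and a median of -0.27, with levels of -1.33 to 1.21 against -1.62 to 4.32. Interferon response genes had a positive sign in 13 of 14 genes and a median of 0.61, with levels of -1.64 to 2.43 against -1.40 to 1.78. In each of these lists the ranges overlapped, and the spread between tumors was wider than the difference.

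The remaining lists had medians of -0.12 for myeloid cells (levels of -0.82 to 1.13 against -0.67 to 1.33), -0.17 for fibroblasts and matrix (-1.48 to 1.44 against -1.91 to 1.21), -0.16 for smooth muscle (-1.24 to 2.65 against -1.13 to 3.14), -0.19 for endothelium (-1.61 to 2.02 against -0.78 to 1.54) and 0.10 for nerve and Schwann cells (-1.38 to 0.39 against -1.05 to 0.81). The sign was positive for 1 of 14 myeloid, 5 of 14 fibroblast and matrix, 1 of 8 smooth muscle, 2 of 11 endothelial and 4 of 7 nerve genes, beside 50.8% of all genes tested. Luminal urothelial genes had a median of -0.05 over 28 genes, with levels of -0.42 to 0.37 against -1.0 to 0.55, and basal and squamous genes a median of 0.09 over 15 genes, with levels of -0.98 to 1.99 against -1.46 to 3.39. Of the basal and squamous genes 8 of 15 had a positive sign, and PI3 of squamous epithelium stood at -1.73 ± 1.13 and the basal keratin gene KRT17 at -1.21 ± 1.10 (limma adjusted p = 0.796 and 0.871). SCNN1G, a sodium channel subunit of urothelium, stood at -0.88 ± 0.68 (limma adjusted p = 0.838). Of the T and NK cell genes, the granzyme gene GZMA stood at 1.05 ± 0.74 and the T cell kinase gene ZAP70 at -0.95 ± 0.58 (limma adjusted p = 0.811 and 0.782). The largest differences of the other cell type lists were those of MZB1 (-1.20 ± 1.16) and POU2AF1 (-0.78 ± 1.30) of B and plasma cells, LYZ (-0.70 ± 0.51) and MRC1 (-0.64 ± 0.46) of myeloid cells, SFRP2 (1.31 ± 1.13) and TNC (-0.42 ± 0.43) of fibroblasts and matrix, SMTN (-0.30 ± 0.36) and ACTG2 (-0.29 ± 0.62) of smooth muscle, TEK (-0.63 ± 0.37) and CDH5 (-0.60 ± 0.46) of endothelium, and NGFR (-1.28 ± 0.73) and GFAP (0.67 ± 0.41) of nerve. OAS2 (1.08 ± 0.66) and ISG20 (0.82 ± 0.61) led the interferon response list. The difference in mean level had the opposite sign to the median difference for the cohesin genes (0.09), the basal and squamous genes (-0.08) and the nerve genes (-0.001). The part of other cell types in the chromosome 13 differences was not tested. Of the 37 olfactory receptor genes that passed the filter, 0 were called, 1 was higher and 2 lower at an unadjusted p under 0.05, and the median was 0.03, with OR2K2 at 3.41 ± 0.88 and OR6F1 at -1.29 ± 0.54 (limma adjusted p = 0.167 and 0.647).

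**Figure D5:**
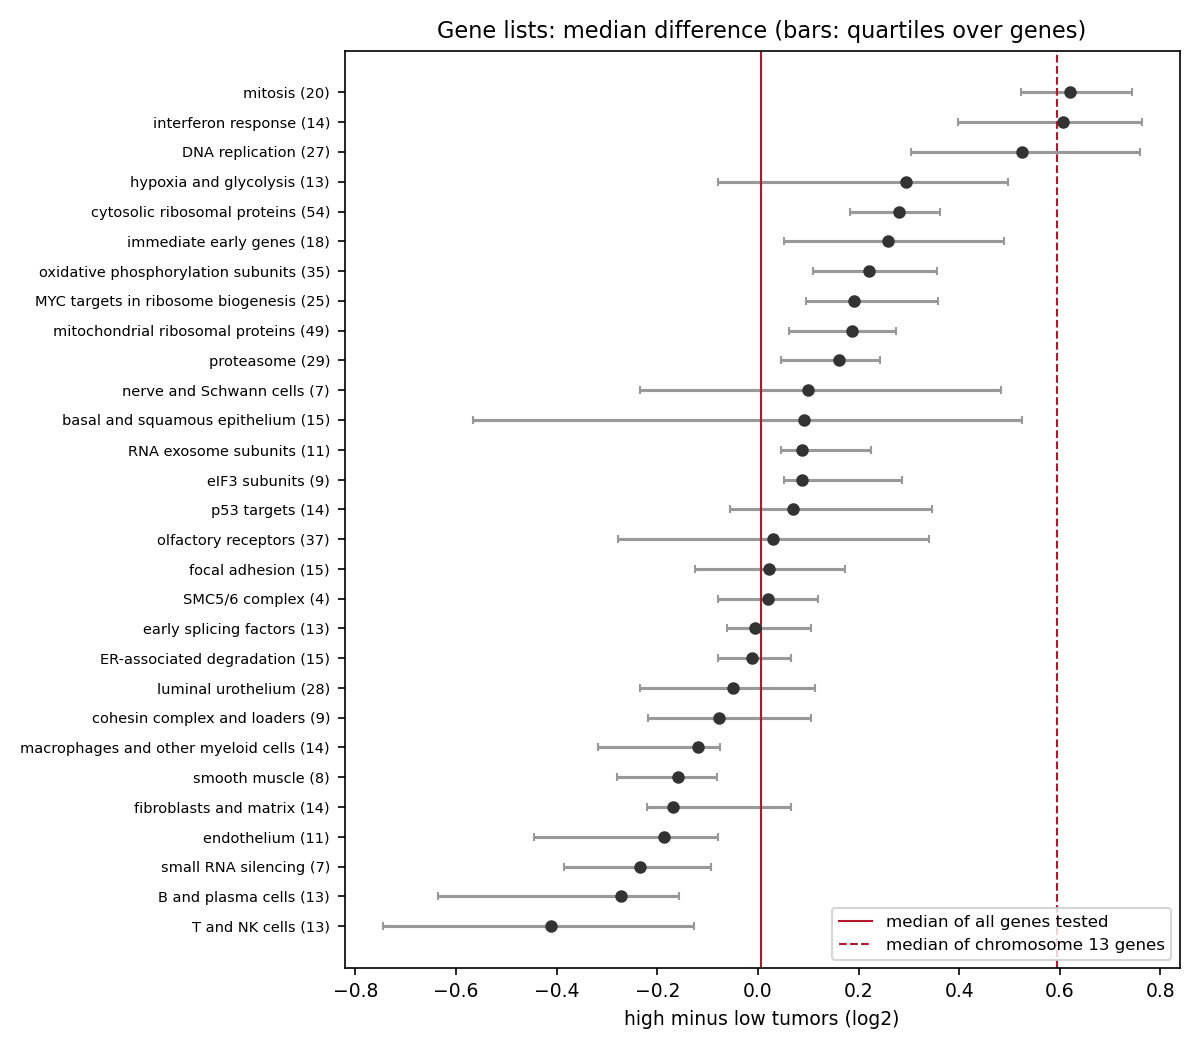
Median difference between the high and low tumors (points, log2) and quartiles over genes (bars) of each gene list other than that of the human chromosome 4 block, with the number of genes tested in parentheses, beside the median of all genes tested (solid line, 0.01) and of chromosome 13 (dashed line, 0.59). Of the lists drawn, mitosis, interferon and DNA replication genes have the highest medians (0.62, 0.61 and 0.52) and T and NK cell genes the lowest (-0.41).

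The normals, which the rule did not use, lay below all 29 tumors in score, at -1.27 to -1.03, and in the median of the other chromosome 13 genes, at -0.82 to -0.58, where the lowest tumor stood at -0.41. By segment they were at -0.64 to -0.34 before the span, -0.82 to -0.55 inside it and -0.83 to -0.60 after it. ASAP1 was again apart, at -0.07 to 0.19 in the normals, and ATAD2 was the lowest of the scoring genes, at -2.76 to -2.01. KIT, at 0.16 to 0.97, was above the median of both tumor groups. The normals also had far fewer genes at the lowest value and 100% of the olfactory receptor genes above it, so sample type and this difference between libraries cannot be told apart, and no test was made.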

How the data were processed

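Expression was measured by RNA sequencing in 29 canine iUC tumors and 4 normal urothelial samples. The authors removed ribosomal RNA, sequenced paired ends, aligned them to CanFam3.1 with COBWeb in Strand NGS and normalized the annotated genes separately by TMM and by DESeq. The deposited values are on the log2 scale and centred gene by gene at the median sample of 33, so they are not counts, a gene's values give no abundance relative to other genes, and the depth per sample is unknown. How reads were assigned to overlapping genes is not given in the sources used here. The last line of each analysed table is incomplete and was dropped, and 25096 genes of the TMM table were used, 12202 with a symbol.

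Chromosomes and gene order came from a RefSeq gene table of assembly UU_Cfam_GSD_1.0, which differs from the authors' build, so no coordinates were taken from it; 11166 genes were matched by gene ID and 1698 by symbol. The tumors were ranked by the score, and limma 3.58.1 in R 4.3.3 (lmFit, eBayes without a trend) compared 10 with 10 tumors, or followed the score over 29, with Benjamini-Hochberg adjustment over all genes and a threshold of 0.05. Many genes have a lowest value that several samples share; such a gene entered the test when 10 or more of the 29 tumors were above it, and genes without such a value entered always. The fit was tested on simulated data. The scoring genes, the lists and the tests were chosen with earlier results of these data known. Named were every scoring gene, the called genes inside the span, MYC, KIT and, of each list, the called members, at most 4, or else the 2 with the largest difference; the other called genes of chromosome 13 and the list members called over 29 tumors were named after their values were seen. Some genes that met these rules are not reported here. Python 3.11.15 made the summaries.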

Additional observations from a re-analysis of the deposited data

Results flagged for a closer look

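In each group of 10 high tumors, 10 low tumors and 4 normals, the highest and the lowest value were compared with the rest. The comparison covered quantities and genes named with a symbol. The score and the scoring genes, which chose the tumors, were left out in the tumor groups. Also left out were LYPD2, PSCA, the urothelial genes of the technical checks and the genes under Other observations. Of 304 groups of values, 16 (5.26%) held a sample far from the others, and chance alone gives about 1 in 20.

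Tumor 2, the lowest in score, was the low tumor apart in 7 of them, all downward: UTP3 at -0.82, OCIAD1 at -0.87, COX18 at -0.69, CDCA5 at -4.32, TTK at -2.59, ORC6 at -2.94 and MCM2 at -2.0. Tumor 12, the highest in score, was apart upward in MCM3 at 2.67. Tumor JE was apart downward among the high tumors in ANKRD46 at -0.015 and TMEM33 at -0.18.

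Tumor 7_733858 was the highest low tumor in SMTN at 1.63, ACTG2 at 4.41 and WDYHV1 at 0.55, and tumor 7 the highest high tumor in ACTG2 at 3.70; SMTN and ACTG2 are smooth muscle genes. Tumor 9 was the highest high tumor in C8orf33 at 1.84. Among the normals, COMMD8 was lowest in sample D at -2.24. What sets these samples apart was not tested.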

How the results depend on the processing

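Where no other setting is named, the comparison of 10 high with 10 low tumors called 39 genes higher and 1 lower, 5 inside the span, 24 on the rest of chromosome 13 and 0 on the other 25 chromosomes examined. A count within 1.5 times of these is not repeated. With a mean-variance trend, 0 were lower and 1 was called on another chromosome. Without the filter on low values, 12 were higher inside the span. With 7 against 7 tumors, 10 were higher and 2 lower, with 1 inside and 6 outside the span. With 14 against 14, 2 were higher, with 0 inside and 2 outside the span, and the chromosome 13 median fell to 0.40. The score as a continuous term gave 136 higher and 10 lower, 29 inside and 56 outside the span, 34 on other chromosomes and 9 list members outside chromosome 13. With a score without EIF3H, DERL1, PTK2, AGO2 or PUF60, 2 genes on other chromosomes were called; without ASAP1, or with RAD21, EIF3H, DERL1 and ATAD2 alone, 3 were, 1 a list member. The share of genes at the lowest value as a covariate gave 3 lower, 3 inside the span and 2 on other chromosomes, and the olfactory share 18 higher, 2 inside and 12 outside the span. A difference of at least 2-fold was met by 10 higher genes, 2 inside and 2 outside the span. Without the tumors over the olfactory limit (chosen after seeing the data), 2 were higher and 0 lower, 0 inside and 1 outside the span.

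Leaving out each tumor in turn gave 25 to 49 higher and 1 to 2 lower genes, 2 to 8 inside and 18 to 31 outside the span, 0 to 2 on other chromosomes, 0 list members outside chromosome 13, and a chromosome 13 median of 0.55 to 0.63. Of the 40 called genes, 25 stayed called in all 20 of these fits, and 1 in all 25 other settings.

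For the score over 29 tumors (136 higher, 10 lower, 34 on other chromosomes, 9 list members outside chromosome 13, 5 DNA replication genes) all alternatives were chosen after seeing the data. The DESeq table gave 3 replication genes. Without ATAD2, 6 were lower, 10 on other chromosomes, 1 list member and 0 replication genes; with EIF3H, DERL1, PTK2, AGO2, PUF60 and EXOSC4 alone, 16 lower, 4 list members and 0 replication genes. The median of the other chromosome 13 genes gave 4 on other chromosomes and 0 replication genes or list members. Without the tumors over the olfactory limit, 41 were higher and 0 lower, with 7 inside and 22 outside the span, 5 on other chromosomes, 2 list members and 0 replication genes. Leaving out each tumor gave 79 to 136 higher, 3 to 25 lower, 17 to 30 inside and 43 to 57 outside the span, 8 to 48 on other chromosomes, 1 to 10 list members and 0 to 7 replication genes.

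No called gene changed sign. Uncalled genes that did were SMTN (0.066) and ACTG2 (0.0096) with 7 against 7 tumors, KIT (-0.13) with 14 against 14, ACTG2 with a score without EIF3H, DERL1, PTK2, AGO2 or PUF60 (0.20), without the olfactory tumors (0.059) and TNC there (0.0015). Without 1 tumor, ACTG2 ranged from -0.67 to 0.13, above 0 without tumor 7_733858, and POU2AF1 from -1.35 to 0.057, above 0 without tumor Da6. The cause of these changes was not tested. Depth is unknown, so the precision of single values cannot be given. No paired analysis was possible because each tumor came from a different dog.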

Other observations

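Over the 29 tumors, further genes on the other chromosomes examined followed the score and were named after their values were seen. Genes that rose included CENPM (slope 1.49 ± 0.35 per unit of score, limma adjusted p = 0.0352), CENPA, the histone variant of centromeres (1.26 ± 0.31), SPC24 (1.54 ± 0.38), CENPQ (1.09 ± 0.24) and KIFC1, a mitotic motor (1.19 ± 0.25). FANCD2 of the Fanconi anemia repair pathway rose as well (1.09 ± 0.26), and so did PFKP, a phosphofructokinase of glycolysis (1.85 ± 0.38, limma adjusted p = 0.0105), and S100A14 (1.51 ± 0.33). Genes that fell included XCR1, a chemokine receptor of cross-presenting dendritic cells (-2.84 ± 0.64, limma adjusted p = 0.0253), MGAT5 (-1.35 ± 0.33), ADAMTS13 (-1.58 ± 0.39), ABCD4 (-1.04 ± 0.23) and the acid sphingomyelinase gene SMPD1 (-0.71 ± 0.17).

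Calls of this kind on other chromosomes numbered 34, 10 without ATAD2 in the score, 4 with the median of the other chromosome 13 genes in its place, 8 without tumor 2, 9 without tumor 12 and 5 without the 6 tumors of high olfactory receptor share.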
